A study of Homo sapiens with 23 samples.

Results

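The 39 genes described here encode proteins of homologous recombination, the Fanconi pathway and mismatch repair, with the checkpoint kinases that signal broken or stalled DNA. They were taken from a given list of gene names that sets no threshold on values but was drawn up with earlier results of these data known. All 39 were found among 28101 named genes and passed the filter on low counts, as did 16828 genes in all. Homologous recombination mends broken chromosomes by copying an intact sister DNA: the ends are cut back to single strands, BRCA2 and its partners prepare these strands for pairing, and RAD54 proteins help the strand invade its copy. The Fanconi core complex attaches ubiquitin to FANCD2 and FANCI at crosslinks between DNA strands, and MSH3, MSH6 and PMS2 belong to the complexes that find and mark bases wrongly paired during replication. Most of these activities serve replicating DNA, and many of the genes are known to be transcribed mainly in cells that are preparing for or passing through S phase.

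RNA was measured in HCT116, an established human colorectal cancer line, by sequencing of polyadenylated RNA in 4 groups of 2 libraries. Cells labelled WT were set against cells labelled MLL4 KO, and cells titled control, whose genotype label also reads WT, against cells labelled BAP1 KO, to ask which RNAs change without each protein and which change without either. MLL4, the product of KMT2D, is a histone methyltransferase of enhancers, and BAP1 is a deubiquitinase of histone H2A. The deposited tables of control and BAP1 KO carry the line name osTir1 and those of WT and MLL4 KO do not. OsTIR1 is a plant auxin receptor that is put into cells to degrade tagged proteins, and the labels do not say whether auxin or a tagged protein was present. The table names of control and BAP1 KO also mention STAR, the aligner, which the other names do not. No source states whether reads were handled alike in both pairs. The labels do not say how the knockouts were made or whether replicate libraries stem from different cultures or clones. The p-values therefore reflect nothing beyond the spread among these 8 libraries. No treatment is given for these RNA libraries other than shared culture conditions, and 15 ChIP-seq samples of the series were not analysed here.

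The libraries held 24.8 to 42.2 M counts over genes (M, 1e6). Levels are given as CPM, counts per 1e6 after TMM scaling, with both libraries of a group in replicate order, and differences as log2 fold changes with their standard error (SE). Tests were edgeR's quasi-likelihood tests with Benjamini-Hochberg adjustment over all 16828 tested genes and a threshold of 0.05. Neither targeted RNA was lower in its knockout: KMT2D stood at 309 and 371 CPM (WT) against 279.7 and 406 CPM (MLL4 KO), and BAP1 at 56.7 and 62.1 CPM (control) against 67.4 and 57.4 CPM (BAP1 KO). A knockout that leaves the RNA in place would not show here, so the groups are called by their labels. Of 11 epithelial and colon markers, 10 reached at least 1 CPM in all 8 libraries and CDX1 was at 0, while 5 of 6 fibroblast and 5 of 6 immune markers stayed below 1 CPM, the exceptions being COL1A1 and CD68. Of the 10 epithelial markers tested, 2 rose and 1 fell in MLL4 KO (median log2 fold change -0.03), 7 fell in BAP1 KO (median -0.84) and 6 were higher in control than in WT (median 0.85). Summed, the 11 markers stood at 4014 and 3905 CPM (WT), 5542 and 5643 (MLL4 KO), 6361 and 6372 (control) and 3133 and 3763 (BAP1 KO), highest in control and lowest in BAP1 KO. CD68, a macrophage marker, stood at 27.3 and 28.2 CPM in control and between 4.03 and 9.02 CPM in the other libraries. The part of these shifts in the results on repair genes was not tested. The median gene differed between replicates by 0.29 (log2) for WT, 0.22 for MLL4 KO, 0.10 for control and 0.19 for BAP1 KO.

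Promoter sequences of 35 of the 39 genes were at hand, and 4 are shown as examples of genes that moved apart in the data. UBE2T, BRIP1 and BLM fell in MLL4 KO and rose in BAP1 KO, and MRE11 fell in BAP1 KO. Each is the 250 bases before an annotated transcription start, 5′ to 3′ on the gene's strand, from RefSeq on GRCh38.p14, with capitals marking CCAAT or its complement ATTGG, the word bound by the factor NF-Y. They lie at chr1:202341937-202342186 (minus strand), chr17:61863529-61863778 (minus), chr15:90717096-90717345 (plus) and chr11:94493845-94494094 (minus).
UBE2T: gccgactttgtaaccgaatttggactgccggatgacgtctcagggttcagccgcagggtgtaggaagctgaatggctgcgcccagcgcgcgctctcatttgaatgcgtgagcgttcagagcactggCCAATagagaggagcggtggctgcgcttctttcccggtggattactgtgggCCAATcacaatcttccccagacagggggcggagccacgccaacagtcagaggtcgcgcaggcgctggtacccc
BRIP1: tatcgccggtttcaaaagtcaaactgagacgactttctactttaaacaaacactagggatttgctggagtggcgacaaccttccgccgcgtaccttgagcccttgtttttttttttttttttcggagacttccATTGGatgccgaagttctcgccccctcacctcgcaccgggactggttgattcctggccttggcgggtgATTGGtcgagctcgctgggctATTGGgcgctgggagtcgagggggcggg
BLM: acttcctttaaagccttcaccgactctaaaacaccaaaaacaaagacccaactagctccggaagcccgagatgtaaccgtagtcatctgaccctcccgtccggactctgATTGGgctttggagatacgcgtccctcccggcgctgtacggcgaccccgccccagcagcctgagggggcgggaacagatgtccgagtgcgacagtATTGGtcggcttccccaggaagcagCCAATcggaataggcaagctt
MRE11: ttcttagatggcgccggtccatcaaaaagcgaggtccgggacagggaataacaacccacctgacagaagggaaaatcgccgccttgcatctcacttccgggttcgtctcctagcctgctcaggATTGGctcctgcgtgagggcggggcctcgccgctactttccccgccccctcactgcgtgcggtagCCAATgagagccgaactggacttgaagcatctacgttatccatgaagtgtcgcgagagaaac

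The word stands 2 times before UBE2T, 3 times before BRIP1, 3 times before BLM and 2 times before MRE11, so it occurred in genes that moved in opposite directions. On either strand it was found before 18 of the 35 genes (51.4%), against 37.0% of the 27305 genes with a promoter entry, and before 9 of the 14 genes (64.3%) that fell in MLL4 KO and rose in BAP1 KO, as well as 4 of the 9 with an entry (44.4%) that passed in neither. The E2F words TTTCCCGC, TTTGGCGC, TTTCGCGC and TTTGCCGC, searched on both strands, were found before 5 of 35 (14.3%) against 3.40% of all, and among those 14 only before FANCA (7.14%), with 2 of the 9 (22.2%) that passed in neither. The CHR words TTTGAA and TTCGAA, a signature of genes active in G2 and mitosis, were found before 5 of 35 (14.3%) against 17.2% of all. E2F matches can overlap each other, as they do before MSH3. A match describes letters in this window and was not tested as a site. A gene counted if any of its promoter entries held a word. There were 50 entries for the 35 genes and 35116 for all 27305 genes. Those 27305 were not limited to the 16828 tested genes, and whether the shares differ was not tested.

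In MLL4 KO against WT, 21 of the 39 genes (53.8%) were lower past the threshold and none were higher, while 9.97% of all tested genes were lower and 9.12% higher. Without adjustment, 29 were lower and 0 higher at p under 0.05, a threshold at which no share of all tested genes is given here. DESeq2 and limma-voom also called 0 higher. The median log2 fold change was -0.59 over the 39 genes and 0.00 over all tested genes. The genes that fell included the recombination mediator BRCA2, the end-resection factor RBBP8, the mismatch sensor MSH6, the checkpoint kinases ATR and CHEK1, and both members of the FANCD2 and FANCI pair. In all 21 the MLL4 KO libraries lay below both WT libraries, a separation found in 31 of the 39 genes (79.5%) and, in that direction, in 30.3% of all tested genes. The MLL4 KO libraries lay above both WT libraries for none of the 39 genes and for 30.0% of all tested genes.

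In BAP1 KO against control, 20 of the 39 genes (51.3%) were higher and 2 (5.13%), MRE11 and PMS2, were lower, against 12.1% higher and 10.4% lower among all tested genes. The median was 0.61 over the 39 genes and 0.01 over all tested genes. The helicase gene BRIP1 rose most, 3.02-fold, followed among the called genes by RAD54L at 2.31-fold and the nuclease gene EXO1 at 2.22-fold. In all 20 the BAP1 KO libraries lay above both control libraries, a separation that 31 of the 39 genes (79.5%) and 37.0% of all tested genes showed. The BAP1 KO libraries lay below both control libraries in 6 of the 39 genes (15.4%), against 35.2% of all tested genes. For 24 of the 39 genes (61.5%), against 9.69% of all tested genes, MLL4 KO lay below WT and BAP1 KO above control without overlap.

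**Figure D1:**
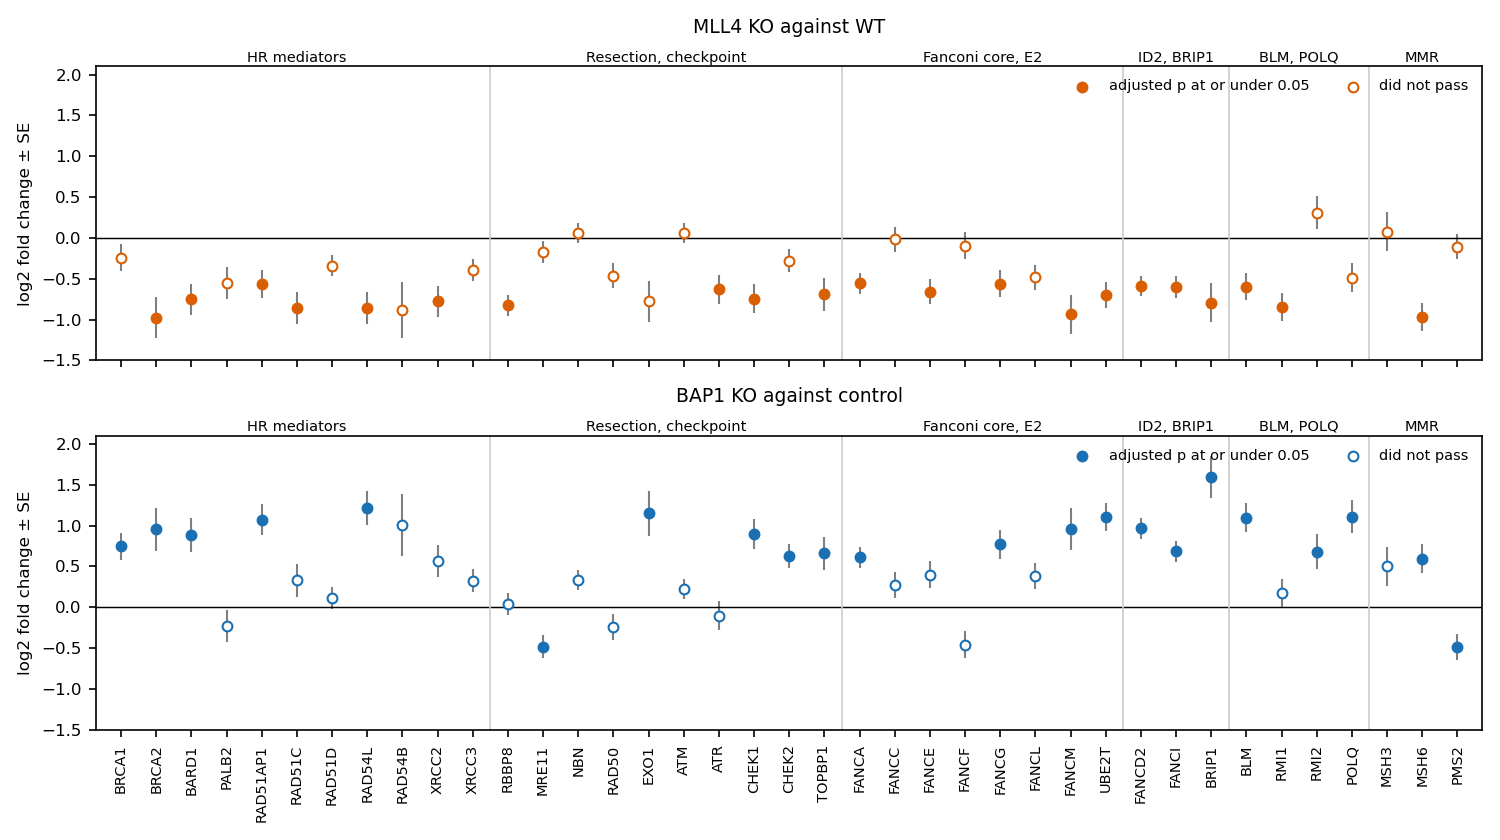
Log2 fold change with its SE (vertical axes) for each of the 39 genes in MLL4 KO against WT (top) and BAP1 KO against control (bottom), grouped by role, with filled points for genes past the threshold. The 21 filled points at the top all lie below 0, and 20 of the 22 at the bottom lie above it.

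The calls in the MLL4 KO comparison rested on few libraries. MLL4 KO replicate 2 lay below replicate 1 in 33 of the 39 genes (84.6%, against 50.2% of all tested genes) and in 18 of the 21 that fell. Leaving it out kept 1 of the 21 calls, RBBP8, and leaving out WT replicate 2 kept 2, RBBP8 and MSH6. Leaving out control replicate 1 or 2, which enter this comparison only through the shared filter, scaling and estimate of spread, kept 3 and 6, and a fit on the 4 WT and MLL4 KO libraries alone kept 0, with 24 genes lower at an unadjusted p under 0.05. For the unadjusted count in that fit no share of all tested genes is given. In each of the 19 alternatives all 21 genes kept their direction. As both MLL4 KO libraries lay below both WT libraries in all 21, leaving out a library could not turn a sign. The median over the 39 genes ranged from -0.74 without MLL4 KO replicate 1 to -0.42 without MLL4 KO replicate 2. In BAP1 KO against control, all 22 calls held in the fit on its own 4 libraries, 7 held without BAP1 KO replicate 1 and 13 without its replicate 2. Leaving out control replicate 1 kept 6 of them, and leaving out control replicate 2 kept 7.

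**Figure D2:**
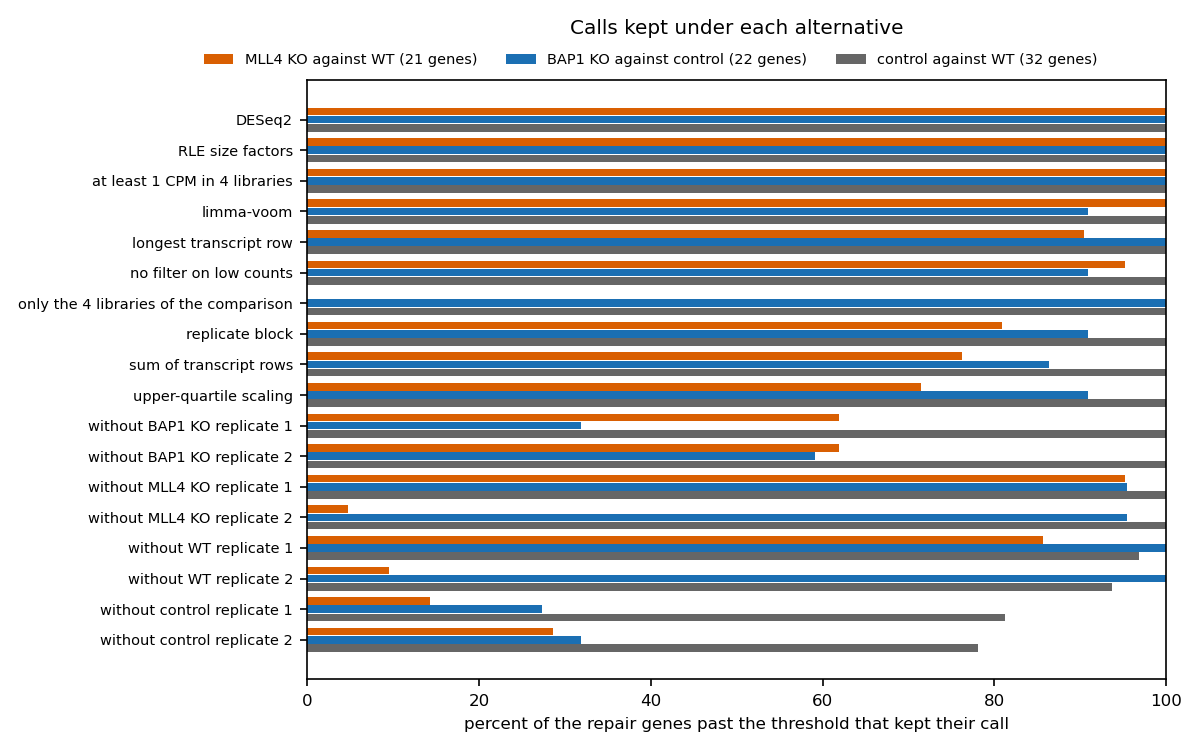
Percent of the repair genes past the threshold that kept their call (horizontal axis) under each alternative analysis (vertical axis), for MLL4 KO against WT (21 genes), BAP1 KO against control (22 genes) and control against WT (32 genes). The MLL4 KO bars drop to 0 in the fit on 4 libraries and to 1 and 2 of 21 genes without MLL4 KO replicate 2 or WT replicate 2.

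A set of 15 genes (38.5%) fell in MLL4 KO and rose in BAP1 KO, which 211 of all tested genes (1.25%) did. They were BRCA2, BARD1, RAD51AP1, RAD54L, CHEK1, TOPBP1, FANCA, FANCG, FANCM, UBE2T, FANCD2, FANCI, BRIP1, BLM and MSH6, that is 71.4% of those that fell in the MLL4 KO libraries and 75% of those that rose in the BAP1 KO libraries. RAD51C, XRCC2, RBBP8, ATR, FANCE and RMI1 fell in MLL4 KO without passing in BAP1 KO, and BRCA1, EXO1, CHEK2, RMI2 and POLQ rose in BAP1 KO without passing in MLL4 KO. The test of the difference between the knockout effects called 27 of the 39 genes (69.2%) lower, meaning a lower change in MLL4 KO than in BAP1 KO, against 8.32% of all tested genes. Of these 27 calls, 14 held without control replicate 1, 12 without control replicate 2 and 16 without BAP1 KO replicate 1. The test called 0 higher, against 7.74% of all tested genes, and DESeq2 and limma-voom also called 0 of the 39 higher. At an unadjusted p under 0.05 the count was 0 as well, with no share of all tested genes given at that threshold. Across the 39 genes the changes in the knockouts had r = -0.43 and rho = -0.44, against r = 0.11 and rho = 0.12 across all tested genes, with all points drawn from the same 8 libraries and genes not being independent replicates.

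**Figure D3:**
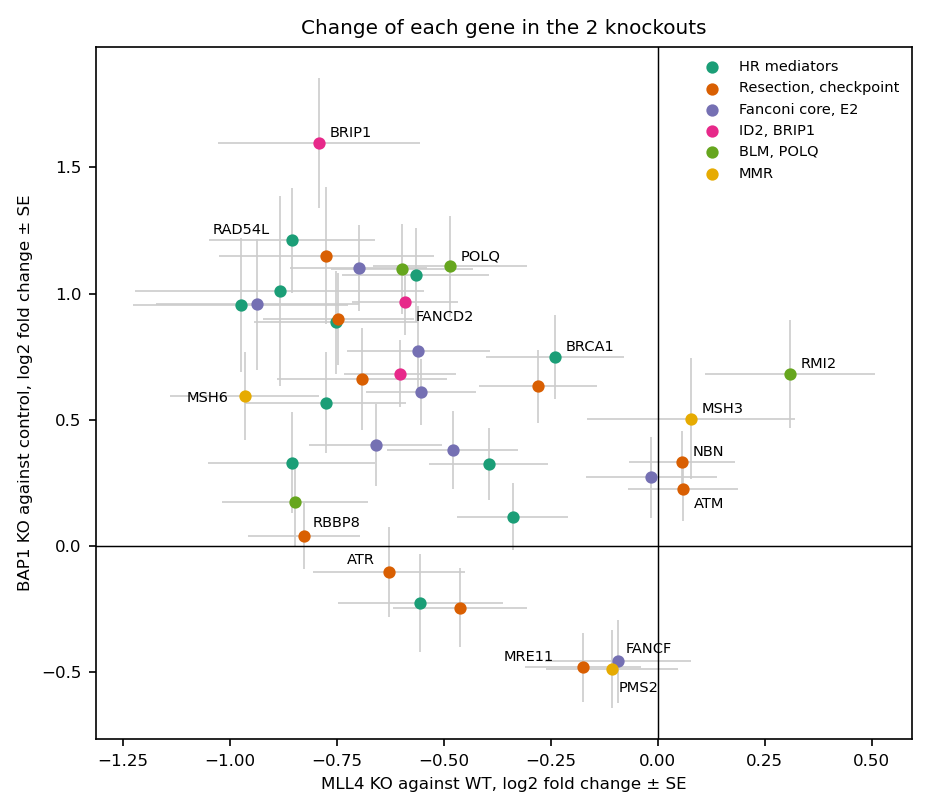
Log2 fold change with SE in MLL4 KO against WT (horizontal axis) and in BAP1 KO against control (vertical axis) for the 39 genes, coloured by role (HR, homologous recombination, and MMR, mismatch repair). Most genes lie in the upper left, lower in MLL4 KO and higher in BAP1 KO. PALB2, MRE11, RAD50, ATR, FANCF and PMS2 lie below 0 on the vertical axis. NBN, ATM, RMI2 and MSH3 lie to the right of 0 on the horizontal axis.

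By the median of the 39 genes, the unedited groups differed from each other by more than either knockout differed from its own reference. In control against WT, 30 of the 39 genes (76.9%) were lower and 2 (5.13%), ATM and FANCF, were higher, against 19.7% lower and 19.9% higher among all tested genes. The median was -1.29, against 0.02 over all tested genes. Both control libraries lay below both WT libraries in 33 of the 39 genes (84.6%, against 35.7%) and above them in 5 (12.8%, against 37.9%). Both groups bear the genotype label WT, the control tables the line name osTir1 as well. The line, its handling, library preparation and read processing cannot be told apart in these 4 libraries. Set against the WT mean, the median of the 39 genes was 66.4% for MLL4 KO, 40.9% for control and 59.8% for BAP1 KO. Over all tested genes these medians were 100%, 101% and 101%. The group means ran in the order control, BAP1 KO, MLL4 KO, WT for 21 of the 39 genes (53.8%) and for 9.28% of all tested genes. For 27 of the 39 genes (69.2%), against 8.94% of all tested genes, the BAP1 KO libraries lay above both control libraries and below both WT libraries. In 12 of them (30.8%, against 2.81%), RAD51D, XRCC2, XRCC3, EXO1, CHEK2, FANCA, FANCG, UBE2T, FANCD2, FANCI, BLM and POLQ, the groups ran from control through BAP1 KO and MLL4 KO to WT with no library out of order. For these 12 genes BAP1 KO was thus compared with the lowest of the 4 groups and MLL4 KO with the highest.

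**Figure D4:**
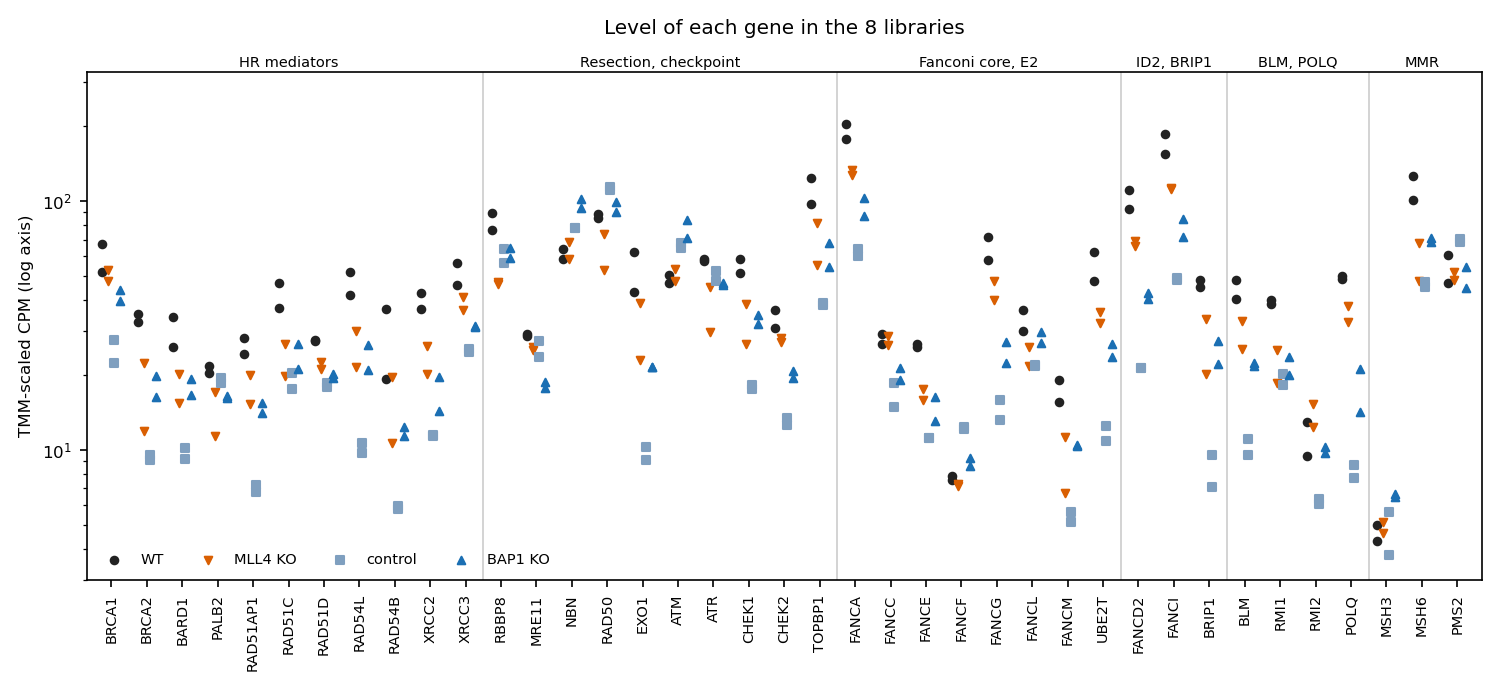
Level of each of the 39 genes in the 8 libraries as TMM-scaled CPM on a log axis, with 2 points per group. For most genes the WT libraries are highest and the control libraries lowest, while NBN, RAD50, ATM, FANCF and PMS2 have both control libraries above both WT libraries.

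Among the 11 genes of strand exchange, 6 fell in MLL4 KO and 5 rose in BAP1 KO. BRCA2, a mediator that acts on resected ends, stood at 35.1 and 32.5 (WT), 22.2 and 11.9 (MLL4 KO), 9.09 and 9.51 (control) and 19.8 and 16.3 (BAP1 KO) CPM. Its MLL4 KO libraries lay below WT and its control libraries lowest, and MLL4 KO replicate 2 lay below both BAP1 KO libraries. The log2 fold change was -0.97 (SE 0.25, adjusted p = 0.0302) in MLL4 KO and 0.95 (SE 0.27, adjusted p = 0.032) in BAP1 KO. RAD54L, a motor protein that helps a DNA strand invade its copy, stood at 41.8 and 51.6 (WT), 30.0 and 21.6 (MLL4 KO), 9.68 and 10.7 (control) and 26.3 and 20.9 (BAP1 KO) CPM. It had the largest rise of this role group in BAP1 KO, 1.21 (SE 0.21, adjusted p = 0.00366), after -0.86 (SE 0.19, adjusted p = 0.0212) in MLL4 KO, and WT, the knockouts and control did not overlap, while the knockouts overlapped each other. RAD51AP1, which stimulates strand pairing, had 24.2 and 28.0 (WT), 20.0 and 15.3 (MLL4 KO), 6.78 and 7.21 (control) and 15.4 and 14.1 (BAP1 KO) CPM. It changed by -0.57 in MLL4 KO (adjusted p = 0.0475) and 1.07 in BAP1 KO (adjusted p = 0.00403). The order WT, MLL4 KO, BAP1 KO, control held for its means, with the lower MLL4 KO library just under the higher BAP1 KO library.

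BRCA1 and BARD1 form a ubiquitin ligase in which each stabilises the other. In MLL4 KO the RNA of BARD1 passed the threshold and that of BRCA1 did not. BRCA1 stood at 67.2 and 51.7 (WT), 52.8 and 47.8 (MLL4 KO), 27.5 and 22.4 (control) and 43.9 and 39.6 (BAP1 KO) CPM, so a MLL4 KO library lay inside the WT range, and its change was -0.24 (SE 0.16, adjusted p = 0.312). BARD1 stood at 25.9 and 34.2 (WT), 20.2 and 15.4 (MLL4 KO), 9.17 and 10.2 (control) and 19.2 and 16.6 (BAP1 KO) CPM, with both MLL4 KO libraries below WT and a change of -0.75 (SE 0.19, adjusted p = 0.0289). Whether those changes differ from each other was not tested. In BAP1 KO both rose, BRCA1 by 0.75 (SE 0.17, adjusted p = 0.0121) and BARD1 by 0.89 (SE 0.20, adjusted p = 0.0139). Per length, the deposited RPKM of BRCA1 was 1.99 and 1.16 times that of BARD1 in the WT libraries and 2.00 and 2.37 times in the MLL4 KO libraries. It was 2.30 and 1.68 times in control and 1.75 and 1.83 times in BAP1 KO, so the groups overlap in this ratio. BRCA1 has a partial copy and a neighbouring gene, BRCA1P1 and NBR2, annotated over or beside it, so its reads may be shared.

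RAD51C, RAD51D, XRCC2 and XRCC3 form complexes that assist strand exchange. RAD51C stood at 37.2 and 46.9 (WT), 26.7 and 19.8 (MLL4 KO), 20.4 and 17.6 (control) and 21.1 and 26.5 (BAP1 KO) CPM. It changed by -0.86 (SE 0.19, adjusted p = 0.0213) in MLL4 KO and by 0.33 (SE 0.20, adjusted p = 0.27) in BAP1 KO. XRCC2 stood at 36.6 and 42.6 (WT), 26.1 and 20.2 (MLL4 KO), 11.5 and 11.4 (control) and 19.6 and 14.2 (BAP1 KO) CPM. Its change was -0.78 (SE 0.19, adjusted p = 0.0254) in MLL4 KO and 0.57 (SE 0.20, adjusted p = 0.0703) in BAP1 KO. Both knockout groups of XRCC2 lay between WT and control without overlap, while for RAD51C a library of each of MLL4 KO, control and BAP1 KO stood near 20 CPM. XRCC3, partner of RAD51C, had 45.8 and 56.2 (WT), 41.3 and 36.3 (MLL4 KO), 24.6 and 25.4 (control) and 31.5 and 31.3 (BAP1 KO) CPM. RAD51D, which acts with XRCC2, had 27.7 and 27.3 (WT), 21.1 and 22.4 (MLL4 KO), 17.9 and 18.6 (control) and 19.5 and 20.1 (BAP1 KO) CPM. Neither passed in a knockout, with -0.39 and -0.34 in MLL4 KO and 0.33 and 0.12 in BAP1 KO, although their libraries ran in the same order of groups without overlap. The readthrough gene RAD51L3-RFFL spans RAD51D and KLC1 overlaps XRCC3, so part of these counts may belong to them. RAD54B, a relative of RAD54L, had 19.2 and 36.8 (WT), 19.6 and 10.6 (MLL4 KO), 5.80 and 5.95 (control) and 12.3 and 11.4 (BAP1 KO) CPM. Its WT libraries lay far apart, and neither change passed, at -0.88 (adjusted p = 0.0995) and 1.01 (adjusted p = 0.091). PALB2, which bridges BRCA1 and BRCA2, stood at 20.3 and 21.6 (WT), 17.1 and 11.3 (MLL4 KO), 19.5 and 18.6 (control) and 16.4 and 16.1 (BAP1 KO) CPM and passed in no comparison.

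Of the resection enzymes, RBBP8 fell in MLL4 KO, EXO1 rose in BAP1 KO and MRE11 fell in BAP1 KO. RBBP8, whose product CtIP starts resection together with the MRE11 nuclease, stood at 76.2 and 89.6 (WT), 46.5 and 47.0 (MLL4 KO), 64.0 and 56.3 (control) and 58.8 and 64.8 (BAP1 KO) CPM. Its MLL4 KO libraries were almost equal and lowest of all groups, and its change of -0.83 (SE 0.13, adjusted p = 0.00866) kept its call in 18 of 19 alternative analyses, more than that of any other of the 21 genes. In BAP1 KO it changed by 0.04 (SE 0.13, adjusted p = 0.851), with overlapping libraries. EXO1, the exonuclease that extends the cut, stood at 43.2 and 62.6 (WT), 38.8 and 22.9 (MLL4 KO), 10.2 and 9.13 (control) and 21.4 and 21.4 (BAP1 KO) CPM. It rose in BAP1 KO by 1.15 (SE 0.27, adjusted p = 0.0175), while its change in MLL4 KO was -0.77 (SE 0.25, adjusted p = 0.06) and did not pass. Its control libraries were 5.49-fold lower than WT.

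MRE11, NBN and RAD50 form the complex that first holds a broken end, and none of the 3 passed in MLL4 KO. MRE11, its nuclease, stood at 29.3 and 28.5 (WT), 26.0 and 25.3 (MLL4 KO), 27.4 and 23.5 (control) and 18.8 and 17.6 (BAP1 KO) CPM. The BAP1 KO libraries of MRE11 were below all others, with a change of -0.48 (SE 0.14, adjusted p = 0.0346). NBN, which brings ATM to the complex, stood at 58.7 and 63.8 (WT), 68.7 and 58.6 (MLL4 KO), 77.7 and 77.6 (control) and 93.6 and 102 (BAP1 KO) CPM, highest in BAP1 KO without overlap, and its change there of 0.33 (SE 0.12, adjusted p = 0.0816) did not pass. RAD50, the complex's tether, stood at 85.6 and 88.8 (WT), 73.9 and 52.6 (MLL4 KO), 111 and 114 (control) and 90.3 and 99.2 (BAP1 KO) CPM, highest in control, with -0.46 in MLL4 KO and -0.24 in BAP1 KO, neither past the threshold. Per length, the RPKM of NBN was 1.20 and 1.26 times that of RAD50 (WT), 1.63 and 1.95 times (MLL4 KO), 1.23 and 1.20 times (control) and 1.82 and 1.80 times (BAP1 KO). Both knockouts thus lay above both unedited groups in this ratio.

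Of the kinases that signal damage, ATR passed in MLL4 KO and ATM in neither knockout. ATM, which answers to broken ends, stood at 46.6 and 50.2 (WT), 53.2 and 47.7 (MLL4 KO), 64.6 and 68.0 (control) and 83.8 and 71.2 (BAP1 KO) CPM. ATM passed in neither knockout, with 0.06 in MLL4 KO and 0.22 in BAP1 KO. It was one of the 2 genes higher in control than in WT, by 0.45 (SE 0.13, adjusted p = 0.02). ATR, which answers to stalled forks and exposed single strands, stood at 58.5 and 57.3 (WT), 45.0 and 29.7 (MLL4 KO), 52.3 and 47.7 (control) and 47.0 and 46.1 (BAP1 KO) CPM, with MLL4 KO replicate 2 far below the other 7 libraries. ATR changed by -0.63 (SE 0.18, adjusted p = 0.0385) in MLL4 KO and by -0.10 (SE 0.18, adjusted p = 0.715) in BAP1 KO. TOPBP1, the activator of ATR, stood at 97.7 and 124 (WT), 81.8 and 55.2 (MLL4 KO), 38.9 and 38.3 (control) and 67.7 and 54.3 (BAP1 KO) CPM. TOPBP1 changed by -0.69 (SE 0.20, adjusted p = 0.041) in MLL4 KO and 0.66 (SE 0.20, adjusted p = 0.044) in BAP1 KO. The test of the difference between the knockout effects gave -1.35 (SE 0.28, adjusted p = 0.0148) for TOPBP1 and -0.52 (SE 0.25, adjusted p = 0.18) for ATR.

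Downstream of these kinases, CHEK1, the main target of ATR, stood at 51.2 and 58.5 (WT), 38.6 and 26.6 (MLL4 KO), 17.6 and 18.2 (control) and 34.8 and 31.9 (BAP1 KO) CPM. It changed by -0.75 (SE 0.18, adjusted p = 0.0235) in MLL4 KO and rose by 0.90 (SE 0.18, adjusted p = 0.0081) in BAP1 KO, with WT highest, control lowest and the 2 knockout groups overlapping between them. Per length, CHEK1 RNA exceeded ATR RNA in WT by ratios of 1.72 and 2.00 and in BAP1 KO by 1.46 and 1.36, but in control the ratios were 0.66 and 0.75. CHEK2, the main target of ATM, stood at 30.9 and 36.4 (WT), 28.2 and 27.2 (MLL4 KO), 12.6 and 13.4 (control) and 19.5 and 20.8 (BAP1 KO) CPM. It rose by 0.63 (SE 0.15, adjusted p = 0.0142) in BAP1 KO and changed by -0.28 (SE 0.14, adjusted p = 0.174) in MLL4 KO. CHEK2 has near-identical pseudogene copies, so its counts are uncertain.

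In the Fanconi core complex and its E2 enzyme, 5 of 8 genes fell in MLL4 KO and 4 of 8 rose in BAP1 KO. UBE2T, the E2 enzyme that carries ubiquitin to FANCD2, had the highest level per length of all 39 genes in WT, 48.3 RPKM, against 29.6 (MLL4 KO), 9.78 (control) and 21.8 (BAP1 KO). In CPM it stood at 47.9 and 62.4 (WT), 35.7 and 32.3 (MLL4 KO), 10.9 and 12.5 (control) and 26.7 and 23.5 (BAP1 KO). No library was out of the order WT, MLL4 KO, BAP1 KO, control, and the changes were -0.70 (SE 0.16, adjusted p = 0.0217) in MLL4 KO and 1.10 (SE 0.17, adjusted p = 0.00235) in BAP1 KO. UBE2T lies at chr1:202331657-202341936 on GRCh38.p14. FANCL, the ligase subunit that works with this E2, stood at 29.9 and 36.3 (WT), 25.8 and 21.7 (MLL4 KO), 21.9 and 21.7 (control) and 29.9 and 26.9 (BAP1 KO) CPM and passed in neither knockout, with -0.48 (SE 0.15, adjusted p = 0.0549) in MLL4 KO and 0.38 (SE 0.15, adjusted p = 0.108) in BAP1 KO.

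FANCA, the core subunit with the highest level per length in WT at 28.0 RPKM, stood at 178 and 204 (WT), 133 and 127 (MLL4 KO), 64.3 and 60.1 (control) and 103 and 86.8 (BAP1 KO) CPM. It changed by -0.55 (SE 0.13, adjusted p = 0.0225) in MLL4 KO and 0.61 (SE 0.13, adjusted p = 0.01) in BAP1 KO, its 4 groups in unbroken order. FANCG, which binds FANCA, stood at 57.8 and 71.5 (WT), 47.6 and 40.1 (MLL4 KO), 15.9 and 13.2 (control) and 27.1 and 22.3 (BAP1 KO) CPM. FANCG changed by -0.56 in MLL4 KO (adjusted p = 0.0458) and 0.77 in BAP1 KO (adjusted p = 0.0144), with the same unbroken order. Its call in MLL4 KO held in 6 of 19 alternatives, the fewest of the genes that fell there. FANCM, the motor protein that anchors the complex to DNA, stood at 15.6 and 19.1 (WT), 11.3 and 6.72 (MLL4 KO), 5.64 and 5.10 (control) and 10.4 and 10.4 (BAP1 KO) CPM. FANCM changed by -0.94 (SE 0.24, adjusted p = 0.0286) and 0.96 (SE 0.26, adjusted p = 0.0274). Its MLL4 KO libraries stood on either side of the BAP1 KO libraries. ZNF276 overlaps FANCA, so its reads may be shared, and other transcript rows of FANCA gave changes from -0.55 to -0.36 in MLL4 KO and from 0.61 to 0.95 in BAP1 KO.

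The subunits FANCC, FANCE and FANCF sit together in the complex, and of these FANCE passed in MLL4 KO and none in BAP1 KO. FANCE stood at 26.0 and 26.7 (WT), 17.5 and 15.8 (MLL4 KO), 11.2 and 11.2 (control) and 16.3 and 13.1 (BAP1 KO) CPM. It fell in MLL4 KO with a change of -0.66 (SE 0.16, adjusted p = 0.0234), and its change in BAP1 KO, 0.40 (SE 0.16, adjusted p = 0.11), did not pass. FANCC stood at 26.6 and 29.1 (WT), 28.7 and 26.4 (MLL4 KO), 18.6 and 14.8 (control) and 21.2 and 19.0 (BAP1 KO) CPM, with overlapping WT and MLL4 KO libraries and a change of -0.01 (SE 0.15, adjusted p = 0.958). FANCF stood at 7.87 and 7.56 (WT), 7.17 and 7.29 (MLL4 KO), 12.4 and 12.1 (control) and 9.22 and 8.58 (BAP1 KO) CPM, lowest in MLL4 KO and highest in control. FANCF was higher in control than in WT by 0.66 (SE 0.17, adjusted p = 0.012), and changed by -0.46 (SE 0.16, adjusted p = 0.076) in BAP1 KO.

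The substrate pair and the BRIP1 helicase were the only role group in which every gene passed in both knockouts. In MLL4 KO the call held in 15 of 19 alternatives for FANCD2, in 14 for FANCI and in 8 for BRIP1. FANCD2, which is clamped on DNA with FANCI once ubiquitin is attached, stood at 92.6 and 111 (WT), 65.9 and 69.1 (MLL4 KO), 21.4 and 21.3 (control) and 42.9 and 40.5 (BAP1 KO) CPM. Its control libraries were almost equal and 4.76-fold below WT, and the 4 groups did not overlap. The changes of FANCD2 were -0.59 (SE 0.12, adjusted p = 0.0173) in MLL4 KO and 0.97 (SE 0.13, adjusted p = 0.00114) in BAP1 KO. FANCI stood at 155 and 187 (WT), 112 and 113 (MLL4 KO), 49.2 and 48.3 (control) and 84.6 and 72.0 (BAP1 KO) CPM, in the same order of groups. FANCI changed by -0.60 (SE 0.13, adjusted p = 0.0189) and 0.68 (SE 0.13, adjusted p = 0.0068). The RPKM of FANCD2 was 0.54 times that of FANCI in both WT libraries and 0.53 and 0.55 times (MLL4 KO), but 0.39 and 0.40 times (control) and 0.46 and 0.51 times (BAP1 KO).

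FANCD2 lies at chr3:10026437-10101932 and FANCI at chr15:89243979-89317259 on GRCh38.p14, and FANCD2 has pseudogene copies with which its reads may be shared. Its transcript rows ranged from -0.60 to -0.21 in MLL4 KO and from 0.56 to 1.03 in BAP1 KO, the widest spans of the 29 genes with more than 1 distinct row of at least 100 reads. BRIP1, the helicase that binds BRCA1 and also acts at crosslinks, stood at 45.2 and 48.1 (WT), 33.5 and 20.2 (MLL4 KO), 9.56 and 7.05 (control) and 27.5 and 22.2 (BAP1 KO) CPM. Its control libraries were 5.67-fold below WT, MLL4 KO replicate 2 lay below BAP1 KO, and its changes were -0.79 (SE 0.24, adjusted p = 0.0456) in MLL4 KO and 1.59 (SE 0.26, adjusted p = 0.00299) in BAP1 KO. The genes RAD54L, UBE2T, FANCD2, BRIP1 and BLM kept their rise in BAP1 KO past the threshold in all 18 alternative analyses of that comparison.

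BLM is the helicase that, with RMI1 and RMI2, takes apart joined recombination intermediates. BLM stood at 40.4 and 48.1 (WT), 33.1 and 25.3 (MLL4 KO), 9.56 and 11.0 (control) and 22.3 and 21.8 (BAP1 KO) CPM, its 4 groups in unbroken order. BLM changed by -0.60 (SE 0.17, adjusted p = 0.0361) in MLL4 KO and 1.10 (SE 0.18, adjusted p = 0.00286) in BAP1 KO. RMI1 stood at 38.7 and 40.2 (WT), 25.2 and 18.6 (MLL4 KO), 18.1 and 20.2 (control) and 19.9 and 23.5 (BAP1 KO) CPM, with MLL4 KO, control and BAP1 KO all in about the same range below WT. It fell in MLL4 KO with a change of -0.85 (SE 0.17, adjusted p = 0.0159) and changed by 0.17 (SE 0.18, adjusted p = 0.516) in BAP1 KO.

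RMI2, the other small subunit of the BLM complex, rose in BAP1 KO and did not pass in MLL4 KO. It stood at 12.9 and 9.47 (WT), 15.2 and 12.3 (MLL4 KO), 6.07 and 6.36 (control) and 10.2 and 9.72 (BAP1 KO) CPM. MLL4 KO replicate 2 lay inside the WT range and replicate 1 above it, with a change of 0.31 (SE 0.20, adjusted p = 0.29). In BAP1 KO it rose by 0.68 (SE 0.21, adjusted p = 0.0465). Per length, RMI2 RNA was 0.79 and 0.56 times RMI1 RNA (WT) and 1.44 and 1.58 times (MLL4 KO), then 0.80 and 0.75 times (control) and 1.22 and 0.98 times (BAP1 KO). Both MLL4 KO ratios were above all 6 others.

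POLQ, the polymerase that joins resected ends through short matching stretches when recombination fails, stood at 48.4 and 50.0 (WT), 37.8 and 32.5 (MLL4 KO), 7.68 and 8.64 (control) and 21.0 and 14.2 (BAP1 KO) CPM. It was the gene of the 39 that differed most between the unedited groups, 6.01-fold lower in control than in WT, or -2.59 (SE 0.20, adjusted p = 3.75e-05) on the log2 scale. It rose in BAP1 KO by 1.11 (SE 0.20, adjusted p = 0.0047), while its MLL4 KO libraries, both below WT, gave -0.49 (SE 0.18, adjusted p = 0.0866).

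Of the mismatch repair genes, MSH6 passed in both knockouts, PMS2 in BAP1 KO and MSH3 in neither. MSH6, which reads mismatches and short loops, stood at 126 and 100.5 (WT), 67.8 and 47.8 (MLL4 KO), 47.4 and 45.1 (control) and 71.2 and 68.5 (BAP1 KO) CPM. WT was highest without overlap and MLL4 KO replicate 2 was level with control, and the changes were -0.97 (SE 0.17, adjusted p = 0.0116) in MLL4 KO and 0.59 (SE 0.18, adjusted p = 0.0376) in BAP1 KO. The fall of MSH6 kept its call in 17 of 19 alternatives. MSH3, which takes the place of MSH6 for longer loops, had the lowest level per length of the 39 genes in WT, 0.837 RPKM. MSH3 stood at 4.96 and 4.31 (WT), 5.12 and 4.61 (MLL4 KO), 5.64 and 3.77 (control) and 6.45 and 6.66 (BAP1 KO) CPM and passed in no comparison. Per length, MSH3 RNA was 0.0380 and 0.0412 times MSH6 RNA (WT), 0.0726 and 0.0926 times (MLL4 KO), 0.114 and 0.0802 times (control) and 0.0870 and 0.0933 times (BAP1 KO).

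PMS2, an endonuclease of mismatch repair, stood at 46.7 and 60.7 (WT), 48.0 and 51.8 (MLL4 KO), 70.4 and 68.5 (control) and 44.8 and 54.4 (BAP1 KO) CPM, highest in control. It changed by -0.11 (SE 0.15, adjusted p = 0.648) in MLL4 KO, inside the WT range, and fell in BAP1 KO with a change of -0.49 (SE 0.15, adjusted p = 0.0492). PMS2 has several near-identical pseudogene copies, so its counts are uncertain. With MRE11 it was 1 of the 2 genes lower in BAP1 KO, both of which were among the 7 that did not pass in control against WT. The other 5 of those 7 were PALB2, NBN, RAD50, ATR and MSH3.

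Other genes of these pathways were counted in the same way. Among all tested genes 9.97% fell and 9.12% rose in MLL4 KO, and 12.1% rose and 10.4% fell in BAP1 KO. Of 26 other homologous recombination genes, 9 fell in MLL4 KO (median -0.38), and 10 rose and 3 fell in BAP1 KO (median 0.20). GEN1, a nuclease that cuts joined DNA, had changes of -0.96 (adjusted p = 0.0107) and 0.90 (adjusted p = 0.00629), and EME1, partner of the MUS81 nuclease, had a change in MLL4 KO of -0.92 (adjusted p = 0.0102). Of 16 other Fanconi genes, 3 fell and 1 rose in MLL4 KO (median -0.23), and 6 rose in BAP1 KO (median 0.41). UHRF1, a reader of crosslinks and of hemimethylated DNA, did both, with -1.15 (adjusted p = 0.0159) and 0.86 (adjusted p = 0.0265). Of 14 other mismatch repair genes, 7 fell in MLL4 KO (median -0.51) and 7 rose in BAP1 KO (median 0.60), RFC5, a subunit of the clamp loader, among both at -0.93 (adjusted p = 0.00966) and 0.74 (adjusted p = 0.00989). Of 20 other checkpoint genes, 7 fell (median -0.40) and 6 rose (median 0.22), and CLSPN, the adaptor through which ATR reaches CHEK1, changed by -1.32 (adjusted p = 0.0155) and 1.51 (adjusted p = 0.00536).

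Repair routes that do not need a sister copy were counted as well. Of 15 genes of non-homologous end joining and shieldin, which protects ends from resection, 4 fell and 1 rose in MLL4 KO, with a median of -0.19, and 3 rose in BAP1 KO, with a median of 0.08. In control 6 of the 15 were lower than in WT and 2 higher (median -0.35). Of 27 genes of nucleotide and base excision repair, 4 fell and 0 rose in MLL4 KO (median -0.15). In BAP1 KO 4 rose and 2 fell (median 0.11), while 10 were lower and 2 higher in control than in WT (median -0.33). Among all tested genes 9.97% fell and 9.12% rose in MLL4 KO, 10.4% fell and 12.1% rose in BAP1 KO, and 19.7% were lower and 19.9% higher in control. Whether the shares of these lists differ from those of all tested genes or of the 39 genes was not tested.

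Markers of the cell cycle, which share no gene with the 39, moved with them. Of 15 S phase markers, 9 fell in MLL4 KO, 10 rose in BAP1 KO and 15 were lower in control than in WT. Of 15 markers of G2 and mitosis, 10 fell, 15 rose and 15 were lower in the same comparisons. The shares of all tested genes were 9.97% lower in MLL4 KO, 12.1% higher in BAP1 KO and 19.7% lower in control than in WT. Summed over the list, S phase markers stood at 3203 and 3653 CPM (WT), 2599 and 1850.4 (MLL4 KO), 855 and 853 (control) and 1517 and 1421 (BAP1 KO). The G2 and mitosis markers stood at 3091 and 3891 CPM (WT), 2366 and 2115 (MLL4 KO), 485 and 489 (control) and 1531 and 1197 (BAP1 KO). The 39 repair genes together stood at 1959 and 2204 CPM, 1548 and 1298 CPM, 1044 and 1014 CPM, and 1375 and 1301 CPM in the same groups. All 3 sums were highest in WT and lowest in control. The end joining list ran in the same order, at 2772 and 3082 CPM (WT), 2167 and 2207 (MLL4 KO), 1742 and 1736 (control) and 1920 and 1908 (BAP1 KO). So did the excision repair list, at 2562 and 3058 CPM, 2350.2 and 2291 CPM, 1914 and 1921 CPM, and 2058 and 2106 CPM. The part of cycling in the changes of the repair genes was not tested. In RNA from whole cultures, fewer cells that express a gene and less of its RNA per cell cannot be told apart.

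**Figure D5:**
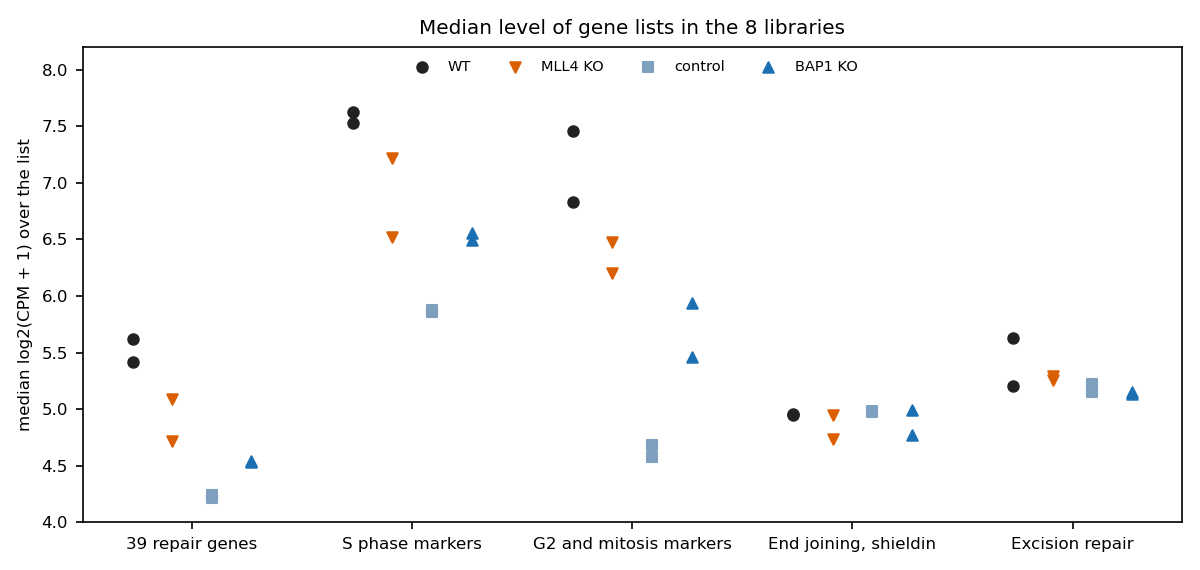
Median log2(CPM + 1) over the genes of 5 lists (vertical axis) in each of the 8 libraries, coloured by group. The 39 repair genes and both sets of cell cycle markers are highest in WT and lowest in control, and the medians lie between 4.74 and 4.99 for end joining and between 5.13 and 5.63 for excision repair, lists whose summed CPM was also highest in WT and lowest in control.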

How the data were processed

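Poly(A)-selected RNA of HCT116 cells was sequenced in 8 libraries, grouped by their titles, per the labels' protocols. Each deposited table gives read counts, which the authors did not normalize, and RPKM values per RefSeq transcript, per the file headers. The submitters' processing notes name hg38, STAR, Bowtie2, bcl2fastq and SICER 1.1 without their roles. How reads were counted, and with which strand setting, is not stated there, so a gene and an antisense partner cannot be separated. Rows were named through RefSeq (GRCh38.p14), 611 of 88819 rows without a symbol (0.233% to 0.256% of counts) were left out, and the row with the highest mean count stood for each gene.

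Counts were fitted in R 4.3.3 with edgeR 4.0.16 (filterByExpr, TMM, robust quasi-likelihood, 1 mean per group over 8 libraries, two-sided) and Benjamini-Hochberg adjustment over 16828 genes. RPKM served only for levels between genes. The alternatives used DESeq2 1.42.0, limma-voom (limma 3.58.1), scaling by RLE or upper quartiles, other filters (none, or 1 CPM in 4 libraries), a fit on 4 libraries, a replicate block, leaving out each library, and the sum or the longest of the transcript rows. A crossed block was added after seeing the data. The members and gene lists were chosen with earlier results of these data known. All 39 genes are named, and from each other list at most the 2 genes with the smallest p per knockout.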

Additional observations from a re-analysis of the deposited data

Results flagged for a closer look

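For 27 genes edgeR's quasi-likelihood test of the difference itself, the change in MLL4 KO minus the change in BAP1 KO, passed the threshold of 0.05 after adjustment over all tested genes, and this is what marked them. All 27 differences, in log2, were below 0. In strand exchange, the difference was -1.93 for BRCA2, -2.07 for RAD54L, -1.89 for RAD54B, -1.64 for BARD1, -1.64 for RAD51AP1, -1.34 for XRCC2, -1.19 for RAD51C, -0.99 for BRCA1 and -0.72 for XRCC3. In resection and signalling, the difference was -1.92 for EXO1, -1.65 for CHEK1, -1.35 for TOPBP1, -0.91 for CHEK2 and -0.87 for RBBP8. In the Fanconi core complex and its E2 enzyme, the difference was -1.89 for FANCM, -1.80 for UBE2T, -1.33 for FANCG, -1.17 for FANCA, -1.06 for FANCE and -0.86 for FANCL. In the substrate pair and its helicase, the difference was -2.39 for BRIP1, -1.56 for FANCD2 and -1.28 for FANCI. Among BLM, its partners and POLQ, the difference was -1.69 for BLM, -1.59 for POLQ and -1.02 for RMI1. In mismatch repair it was -1.56 for MSH6. The comparisons have separate references, WT and control, and all 27 genes were lower in control than in WT past the threshold. Both references enter the difference. Its median over the 39 genes was -1.17, against -1.29 for control against WT. The part of the references in it was not tested.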

How the results depend on the processing

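With 2 libraries per group, calls depended on single libraries more than on scaling or tool. Leaving out 1 library at a time gave 530 to 5290 called genes for MLL4 KO against WT (3212 with all), with 1 to 24 of the 39 genes lower and 0 higher. For BAP1 KO against control it gave 1076 to 5010 called genes (3777 with all), with 6 to 22 of the 39 higher and 0 to 2 lower. For the difference of the knockout effects it gave 680 to 4419 (2703 with all), with 12 to 28 of the 39 lower. Control against WT gave 3252 to 7258 (6661 with all), with 25 to 30 of the 39 lower and 0 to 4 higher. The fit on the 4 libraries of each comparison called 60 genes in MLL4 KO, with 0 of the 39 lower and 0 higher. In BAP1 KO it called 6658 genes, with 25 of the 39 higher and 4 lower. Summing transcript rows left 1 of the 39 lower in BAP1 KO, and upper-quartile scaling put 4 higher in control than in WT, with a median over all tested genes of 0.09 in MLL4 KO. The cause of these shifts was not tested.

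The labels do not say whether equally numbered replicates share a culture or a day. Deviations of equally numbered libraries had r = -0.143 over genes for WT with MLL4 KO and 0.006 for control with BAP1 KO. For WT with control r was -0.002, and for MLL4 KO with BAP1 KO it was 0.0165. Whether replicates shared more than a number was not tested. With the replicate block, 17 of the 39 genes were lower in MLL4 KO and 18 higher and 2 lower in BAP1 KO, 25 were lower in the difference, and 30 were lower and 2 higher in control against WT. A crossed block called 3363 genes in MLL4 KO against WT, 21 of the 39 lower, against 2347 with the plain block.

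Changes that turned sign were all of genes that had not passed in that comparison. Without single libraries, changes in MLL4 KO against WT ran from -0.0641 through -0.00525 to 0.186 for NBN, from -0.0218 to 0.155 for ATM, from -0.0233 through -0.00492 to 0.175 for MSH3, from -0.285 to 0.0973 for PMS2, and from -0.0816 through 0.00486 and 0.0553 to 0.0637 for FANCC. FANCC also turned to 0.00453 with the longest row and to 0.0718 with upper-quartile scaling. In BAP1 KO against control, RBBP8 ran from -0.0638 through -0.0307 to 0.129, and in the difference RAD50 ran from -0.487 to 0.0298. In control against WT, MSH3, at -0.000899 with all libraries, turned to 0.0074, 0.0101, 0.00562 and 0.0538 under other filters, rows or scaling. Without single libraries it ran from -0.279 through 0.00215, 0.00244, 0.00906 and 0.0953 to 0.29.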
